A study of Mus musculus with 4 samples.

Results

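Chemokine ligand genes were followed in mouse cells labelled as endothelium of the collecting lymphatic vessels that drain a tumour. The genes were chosen by name alone: every gene with a symbol made of Ccl, Cxcl, Cx3cl or Xcl and a number, measured by at least 1 probe set (the group of short probes that reports a transcript) that the array annotation pairs with that gene only. This gave 33 of the 18193 genes on the array, measured by 51 probe sets, and the probe set with the highest mean signal stood for the gene. The 33 comprised 18 CC genes, 13 CXC genes, 1 CX3C gene (Cx3cl1) and 1 XC gene (Xcl1). A further 4 probe sets named several genes of which at least 1 was a chemokine, 1 for the Ccl21 group, 1 for the Ccl19 group and 2 for the Ccl27 group. They name no single gene, so Ccl19, the Ccl21 genes and Ccl27b were not analysed here.

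The comparison was between 2 arrays labelled Apex and 2 labelled VEGFD. In both groups 293EBNA cells, a line from human embryonic kidney, formed tumours in the flank of mice and were left to reach 2000 mm3. The Apex tumours carried the empty expression vector, and the VEGFD tumours carried the same vector with the gene of VEGF-D, a secreted growth factor of lymphatic and blood vessels, so the control tumours shared the cell line, the vector and the site. Patent Blue V injected into the tumour showed the draining vessels, which were dissected, made into a suspension and sorted magnetically for endothelial cells. The 2 arrays of a group are labelled biological replicates, but no source used here says whether each was 1 mouse or a pool, so p-values measure the spread between these arrays. Mouse strain and age were not given in the sources used here, and the extraction protocol speaks of lymph node endothelium where the other labels name collecting lymphatics.

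Chemokines are small proteins, most of them secreted, that guide leukocytes by binding seven-helix receptors on the leukocyte surface. They are sorted into CC, CXC, CX3C and XC families by the spacing of conserved cysteines, and many are held on glycosaminoglycans of the vessel wall. Lymphatic endothelium is best known for Ccl21, which draws Ccr7-bearing dendritic cells into lymph vessels, and inflamed lymphatic endothelium also makes inflammatory CC and CXC ligands. Atypical receptors take up chemokines without the usual signalling and so shape their gradients.

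The sequence before the start of a gene is shown for the members whose signals separated the groups most and for which the promoter table held an entry. RefSeq promoters (GRCm38.p6) were found for 23 of the 33 members, and Ccl2, Ccl7 and Ccl11 were among the 10 without one. Each line gives the 250 bases before the start, 5′ to 3′ on the strand of the gene, with matches to the motifs searched in capitals.
Cxcl14, chr13:56296552-56296801, minus strand: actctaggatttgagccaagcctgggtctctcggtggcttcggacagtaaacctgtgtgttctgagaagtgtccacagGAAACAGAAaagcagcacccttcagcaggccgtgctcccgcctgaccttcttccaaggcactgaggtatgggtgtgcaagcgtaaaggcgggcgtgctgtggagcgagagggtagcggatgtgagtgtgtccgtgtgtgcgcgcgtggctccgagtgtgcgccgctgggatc
Cxcl12, chr6:117168285-117168534, plus strand: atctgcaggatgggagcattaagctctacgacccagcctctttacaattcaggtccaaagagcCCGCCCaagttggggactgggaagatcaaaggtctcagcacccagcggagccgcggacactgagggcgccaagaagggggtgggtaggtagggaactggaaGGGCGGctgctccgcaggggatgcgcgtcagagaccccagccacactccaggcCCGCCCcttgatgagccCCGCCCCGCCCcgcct
Ccl9, chr11:83578637-83578886, minus strand: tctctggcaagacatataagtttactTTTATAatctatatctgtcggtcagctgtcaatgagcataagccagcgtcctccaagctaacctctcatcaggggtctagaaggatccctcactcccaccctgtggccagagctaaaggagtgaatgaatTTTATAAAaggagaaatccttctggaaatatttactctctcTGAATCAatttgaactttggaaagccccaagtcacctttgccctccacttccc
Ccl6, chr11:83593088-83593337, minus strand: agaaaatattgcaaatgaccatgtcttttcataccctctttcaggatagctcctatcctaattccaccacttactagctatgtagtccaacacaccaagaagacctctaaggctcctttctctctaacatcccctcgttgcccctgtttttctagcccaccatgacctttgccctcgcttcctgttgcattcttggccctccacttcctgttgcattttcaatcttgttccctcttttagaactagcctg
Capitals mark matches on either strand to 5 motifs, which were chosen after the expression values had been seen. The motifs were an NF-kappaB-like GGANTTTCC, an interferon-response-like GAAANNGAA, the AP-1 motif TGANTCA, the TATA motif TATAAA and the GC box GGGCGG. The Cxcl14 window held 1 interferon-response-like match, from base -172 to base -164 counted from the gene's start. The Cxcl12 window held 5 GC-box matches, of which the 2 nearest to the start overlapped by 1 base. The Ccl9 window held an AP-1 match at base -53 and 3 TATA matches, of which 2 overlapped, and the Ccl6 window held none of the 5 motifs.

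The neutrophil-attracting genes Cxcl1, Cxcl2 and Cxcl3 and the interferon-induced gene Cxcl10 are shown because they were the members with an NF-kappaB-like match, given in capitals with 10 bases on each side.
Cxcl1, chr5:90891165-90891193, plus strand: ctgtactccgGGAATTTCCctggcccgga
Cxcl2, chr5:90903793-90903821, plus strand: ctgagctcagGGAATTTCCctggtccccg
Cxcl3, chr5:90786019-90786047, plus strand: agctgcggggGGAATTTCCccagcccggg
Cxcl10, chr5:92349029-92349057, minus strand: gaggggagagGGAAATTCCaagttcatgg
The match began at base -70 in Cxcl1, at base -96 in Cxcl2, at base -72 in Cxcl3 and at base -158 in Cxcl10, and its letters were the same in the first 3. It was held by 4 of 23 member windows (17.4%), against 1.07% of the 32851 promoter windows in the table. Over the alignable stretch, the Cxcl2 and Cxcl3 windows were 68.7% identical across 230 columns. Cxcl1 was 73.2% identical to Cxcl2 across 123 columns and 73.0% identical to Cxcl3 across 74, so these 3 windows share stretches of sequence. Whether the matches lie within those stretches was not recorded. The interferon-response-like motif was found in 5 member windows, those of Ccl1, Ccl3, Cxcl9, Cxcl10 and Cxcl14 (21.7% against 7.13% of all windows). The AP-1 motif was found in 2, those of Ccl9 and Cxcl10 (8.70% against 6.75%). The TATA motif was found in 8 (34.8% against 12.4%) and the GC box in 4, those of Ccl28, Cx3cl1, Cxcl12 and Cxcl2 (17.4% against 32.7%). In the member windows no match to a motif overlapped a match to another. A match describes the letters only, and no binding was measured.

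The array signals are on a linear scale, and changes are given as log2(signal + 16), VEGFD minus Apex, which understates the change of dim genes. A gene was tested when its mean was at or above the median probe set, 5.37 on that scale or a signal of 25.3. Of the 33 chemokine genes 17 passed (51.5%), against 64.2% of all genes. Signals reached 25.3 on all 4 arrays for 12 members, on 3 arrays for 3, on 2 for 3, on 1 for 3 and on none for 12. Cxcl10 lay just above the filter with a mean of 5.41, and Ccl6 just below it with 5.23.

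**Figure D1:**
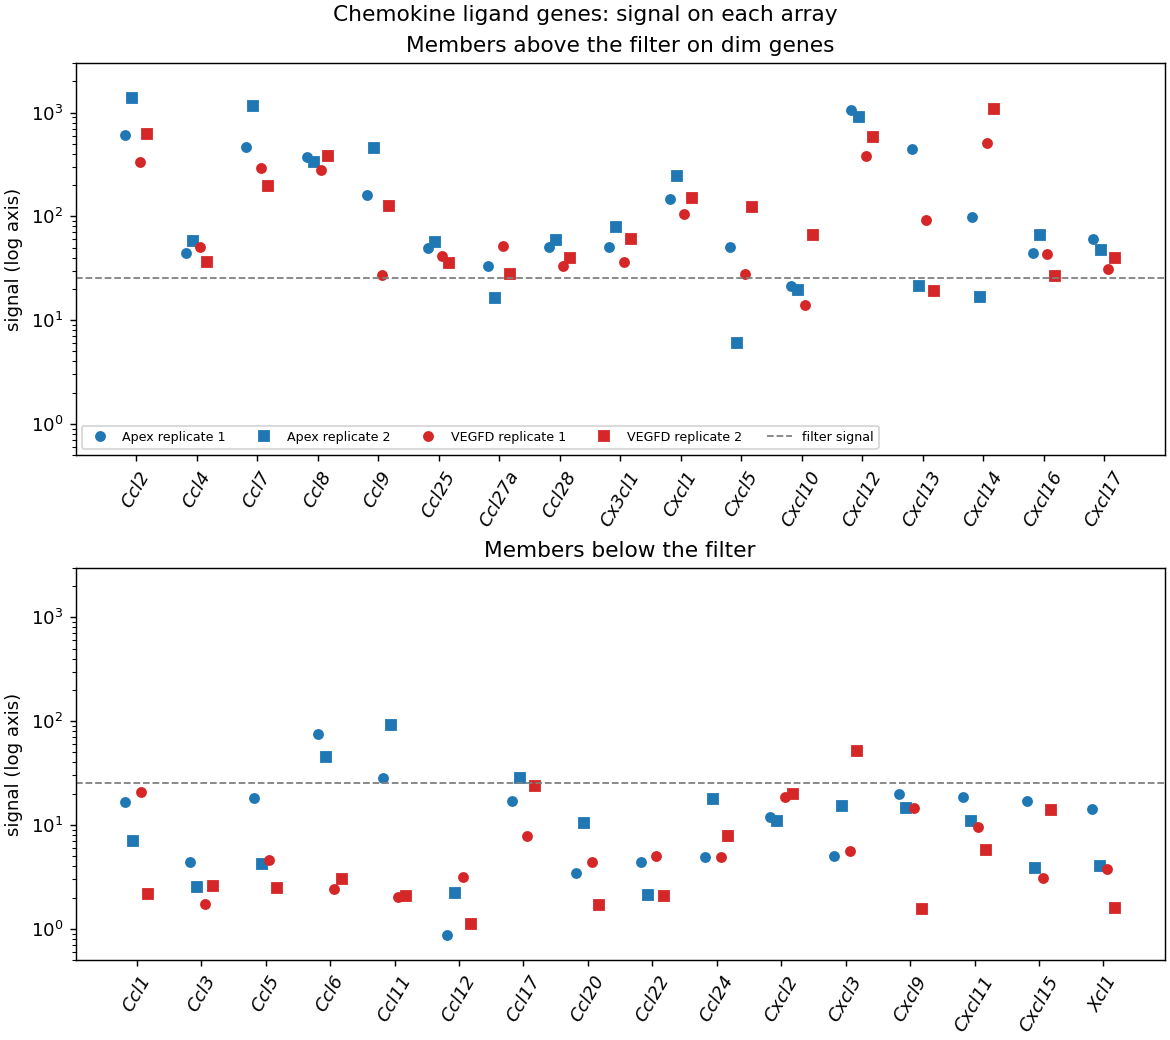
Signal (log axis) of each of the 33 chemokine ligand genes on each array, with circles for replicate 1, squares for replicate 2, blue for Apex and red for VEGFD; the dashed line is the filter signal of 25.3. The upper panel holds the 17 tested genes and the lower panel the 16 below the filter, where Ccl6 and Ccl11 exceeded the line in both Apex arrays and lay at 3.03 or less in both VEGFD arrays.

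No chemokine ligand gene passed an adjusted p of 0.05 in limma, and the share of all 11677 tested genes that did was 0% (smallest adjusted p 0.115). At an unadjusted p below 0.05 limma called 4 of the 17 members, Cxcl14 higher and Cxcl12, Ccl7 and Ccl9 lower in VEGFD, where 5.7% of all tested genes were called. The log2 change was below 0 in 13 of the 17 members, against 53.6% of tested genes. The median change was -0.43 over the tested members and -0.04 over all tested genes. Over all 33 members 25 were below 0 with a median of -0.33, against 56.5% of all genes with a median of -0.05.

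Separation without a test was counted as well, since an exact permutation test of 2 arrays against 2 cannot go below p = 0.33. At least 2-fold apart with no overlap between the groups, 3 members were lower in VEGFD (Ccl7, Ccl9 and Cxcl12), where 2.79% of tested genes were. In the other direction 1 member qualified, Cxcl14, where 1.09% of tested genes did. With a difference of any size and no overlap, 7 members were lower (Ccl7, Ccl9, Ccl25, Ccl28, Cxcl12, Cxcl16 and Cxcl17), against 21.8% of tested genes. The count was 1 for higher, again Cxcl14, against 16.6%. These counts rest on the probe set used for each gene. Another probe set overlapped for Ccl9, Cxcl12 and Cxcl16, went the other way for Ccl25, and separated the groups for Cxcl1. The other probe sets of Ccl28 and Cxcl14 separated the groups in the same direction as the one used. Centring the arrays on their medians moved the median of all tested genes up by 0.12 and took the share of tested genes below 0 to 40.7%. It took the counts of tested genes 2-fold apart without overlap from 326 lower and 127 higher to 239 and 192. With that centring 12 of the 17 members were below 0, 2 were 2-fold lower and 1 was 2-fold higher without overlap.

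**Figure D2:**
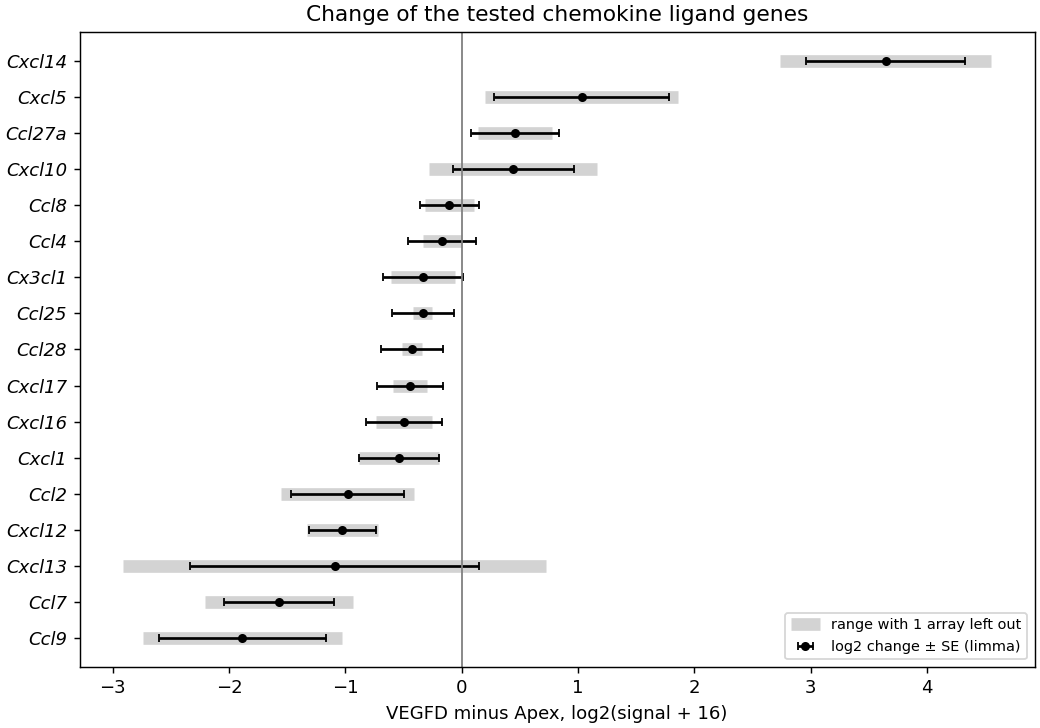
Change of the 17 tested chemokine ligand genes, in log2(signal + 16), VEGFD minus Apex; points are the limma estimates, bars ± 1 SE, and grey bands the range when 1 of the 4 arrays is left out. Cxcl14 lies apart at 3.65, 13 genes lie below 0, and the grey bands of Ccl4, Ccl8, Cxcl10 and Cxcl13 cross 0.

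Among the CXC ligands outside the neutrophil and interferon groups, Cxcl14 had more signal in both VEGFD arrays and Cxcl12 had more in both Apex arrays. Cxcl14 encodes a chemokine made by many epithelia and by fibroblasts. Its signal (gene ID 57266) was 98.7 and 16.6 in the Apex arrays and 514 and 1089 in the VEGFD arrays. Both VEGFD values lay above both Apex values, and Apex replicate 2 was under the filter signal. The log2 change was 3.65 ± 0.68 (SE, n = 2 in each group), with an unadjusted p of 0.00249 and an adjusted p of 0.682 in limma. The second Cxcl14 probe set gave 143, 27.5, 334 and 315 in the same order of arrays, a change of 2.03. With 1 array left out the change lay between 2.74, without Apex replicate 2, and 4.55, without Apex replicate 1. Leaving out VEGFD replicate 1 gave 4.18 and an adjusted p of 0.0264 in limma, with 372 of all tested genes (3.19%) called.

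Cxcl12 encodes the ligand of Cxcr4 and Ackr3, made by stromal cells and endothelium. It had signals of 1055 and 904 in the Apex arrays and of 378 and 586 in the VEGFD arrays (gene ID 20315). The groups did not overlap. The log2 change was -1.03 ± 0.29, with an unadjusted p of 0.0144 and an adjusted p of 0.823 in limma. Its other probe sets gave -0.53 and -0.11, the mean over its probe sets was -0.55, and with 1 array left out the change lay between -1.33 and -0.72.

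Cxcl13, which draws B cells into lymphoid follicles, had 447 and 21.2 in the Apex arrays and 91.7 and 19.1 in the VEGFD arrays. In each group replicate 1 was the higher, and the groups overlapped. Its change of -1.09 ± 1.24 became 0.73 without Apex replicate 1. Cxcl17, a mucosal chemokine, had 61.1 and 47.2 in Apex and 31.2 and 39.8 in VEGFD, without overlap and with a change of -0.44 ± 0.28. Adjusted p in limma was 0.865 for Cxcl13 and 0.826 for Cxcl17.

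**Figure D3:**
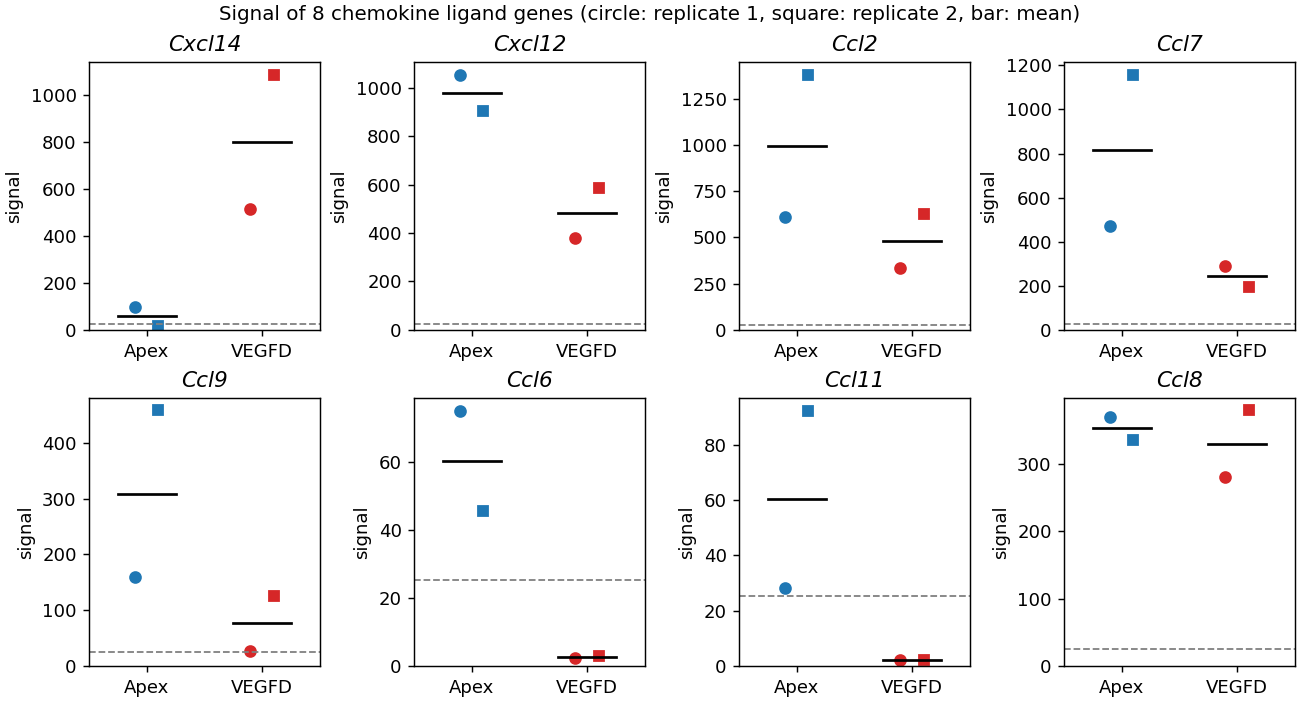
Linear signals of 8 chemokine ligand genes, with a circle for replicate 1, a square for replicate 2, a bar for the mean of the 2 arrays of a group and a dashed line at the filter signal of 25.3. Cxcl14 is higher in both VEGFD arrays, Cxcl12, Ccl7, Ccl9, Ccl6 and Ccl11 are lower in both, and the groups overlap for Ccl2 and Ccl8.

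The CC ligands that attract monocytes and eosinophils had 6 members, of which Ccl2, Ccl7 and Ccl8 were tested. All 3 had changes below 0, except that Ccl8 was at 0.017 with arrays centred on their medians and at 0.10 without VEGFD replicate 1. Their median was -0.98, and none passed. Ccl7, which acts on monocytes through Ccr2 among other receptors, had 470 and 1158 in the Apex arrays and 289 and 195 in the VEGFD arrays (gene ID 20306). Both VEGFD arrays lay below both Apex arrays. The log2 change was -1.57 ± 0.47, with an unadjusted p of 0.0190 and an adjusted p of 0.823 in limma, and it was -0.94 without Apex replicate 2.

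Ccl2, the main monocyte attractant acting through Ccr2, had 613 and 1381 in the Apex arrays and 336 and 625 in the VEGFD arrays. VEGFD replicate 2 lay just above Apex replicate 1, so the groups overlapped. The log2 change was -0.98 ± 0.49 (adjusted p 0.823 in limma), and -0.41 without Apex replicate 2. Ccl8, another monocyte attractant, had 371 and 336 in Apex and 280 and 380 in VEGFD. The VEGFD values lay on both sides of the Apex values, and its change of -0.11 ± 0.26 had an adjusted p of 0.933 in limma.

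Ccl11, the eosinophil attractant also called eotaxin, lay below the filter on its mean. Its signal was 28.2 and 92.3 in the Apex arrays and 2.03 and 2.07 in the VEGFD arrays. Only the Apex arrays exceeded 25.3. On the log2(signal + 16) scale the change was -1.94, and a limma fit without the filter gave an SE of 0.47, an unadjusted p of 0.00883 and an adjusted p of 0.821. The change was -4.10 with a pseudocount of 1 and -0.86 with 64, so its size depends on the pseudocount. The other 2 members of the group, Ccl12 and Ccl24, stayed under 25.3 on every array.

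Of the 5 inflammatory CC ligands Ccl3, Ccl4, Ccl5, Ccl6 and Ccl9, Ccl4 and Ccl9 were tested and neither passed. Ccl9, a mouse chemokine that acts through Ccr1, had 159 and 458 in the Apex arrays and 27.1 and 125 in the VEGFD arrays (gene ID 20308). The groups did not overlap. The log2 change was -1.88 ± 0.72, with an unadjusted p of 0.0446 and an adjusted p of 0.823 in limma. Its second probe set had 44.8 and 144 in Apex and 13.0 and 51.0 in VEGFD, a change of -1.16 with overlapping groups. With 1 array left out the change of the probe set used lay between -2.74 and -1.03.

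Ccl6, a related mouse chemokine, lay below the filter. It had 75.2 and 45.6 in the Apex arrays and 2.41 and 3.03 in the VEGFD arrays, again without overlap. The change was -2.001, and the fit without the filter gave an SE of 0.32, an unadjusted p of 0.00126 and an adjusted p of 0.821 in limma. It was -4.01 with a pseudocount of 1 and -0.89 with 64, and the second probe set gave -0.82. Ccl4, made by activated leukocytes, had 44.1 and 57.3 in Apex and 50.5 and 36.6 in VEGFD, a change of -0.17 ± 0.29 with overlapping groups. Ccl3 and Ccl5 stayed under 25.3 on every array.

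Many chemokine genes stand side by side in the genome, and in the reference annotation (GRCm38.p6) there were 4 runs of members that held no other protein-coding gene between them. The run Ccl2, Ccl7, Ccl11, Ccl12, Ccl8 and Ccl1 had changes from -1.94 in Ccl11, which was below the filter, to 0.05. The run Ccl5, Ccl9, Ccl6, Ccl3 and Ccl4 had changes from -2.001 in Ccl6, also below the filter, to -0.10. The run Cxcl3, Cxcl15, Cxcl1 and Cxcl2 ranged from -0.54 to 0.57, and the run Ccl22, Cx3cl1 and Ccl17 from -0.33 to 0.02. The upstream windows of Ccl6 and Ccl9 shared an alignable stretch of 17 columns, of which 16 were identical.

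The CC ligands that draw T cells and dendritic cells, or guide cells to skin and mucosa, had 7 members, of which Ccl25, Ccl27a and Ccl28 were tested and none passed. Ccl28, a mucosal ligand of Ccr10, had 50.9 and 58.7 in Apex and 33.5 and 40.0 in VEGFD, without overlap and with a change of -0.43 ± 0.27. Ccl25, the ligand of Ccr9, had 49.1 and 56.4 in Apex and 41.6 and 35.4 in VEGFD, with a change of -0.34 ± 0.27. The groups did not overlap for Ccl25, but its second probe set, with signals of 8.98 to 30.5, gave 0.66 and the mean of both gave 0.16.

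Ccl27a, a skin-homing ligand of Ccr10, had 33.0 and 16.5 in Apex and 52.2 and 27.9 in VEGFD, overlapping, with a change of 0.46 ± 0.38. Adjusted p in limma for these 3 lay at 0.826 or 0.832. Ccl17, a ligand of Ccr4, was below the filter with 16.8, 28.5, 7.84 and 23.8 in Apex 1, Apex 2, VEGFD 1 and VEGFD 2. Ccl1, Ccl20 and Ccl22 stayed under 25.3 on every array.

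The neutrophil-attracting CXC ligands act through Cxcr2, and 2 of 5 were tested. Cxcl1 had 146 and 246 in the Apex arrays and 106 and 150 in the VEGFD arrays. VEGFD replicate 2 lay just above Apex replicate 1. The change was -0.54 ± 0.34 (adjusted p 0.826 in limma). Its other probe sets gave -0.64 and -0.55, and in both the groups did not overlap. The first had 96.6 and 153 in Apex and 60.5 and 86.9 in VEGFD. The second had 183 and 178 in Apex and 123 and 114 in VEGFD. Cxcl5 had 50.6 and 6.0 in Apex and 28.0 and 123 in VEGFD, a change of 1.03 ± 0.75 (adjusted p 0.828 in limma) with overlapping groups. Without VEGFD replicate 2 the change of Cxcl5 was 0.20, and without Apex replicate 2 it was 0.23.

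Cxcl3 was below the filter with 5.02 and 15.2 in Apex and 5.62 and 51.2 in VEGFD, so only VEGFD replicate 2 exceeded 25.3. Cxcl2 had 11.9 and 11.02 in Apex and 18.8 and 19.7 in VEGFD, without overlap and under 25.3 on every array. Cxcl15 was under 25.3 on every array too. Of these 3 genes with the NF-kappaB-like match shown above, Cxcl1 had a change below 0 and Cxcl2 and Cxcl3 changes above 0, and only Cxcl1 was tested.

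The interferon-induced ligands of Cxcr3, which draw activated T cells, were Cxcl9, Cxcl10 and Cxcl11. Cxcl10 had 21.5 and 19.6 in Apex and 14.1 and 65.9 in VEGFD. VEGFD replicate 2 alone exceeded 25.3, and its change of 0.44 ± 0.52 (adjusted p 0.869 in limma) became -0.28 without that array. Cxcl9 and Cxcl11 stayed under 25.3 on every array.

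Cx3cl1 and Cxcl16 encode chemokines made as membrane-bound proteins. Cxcl16, the ligand of Cxcr6, had 44.7 and 66.5 in Apex and 43.3 and 26.4 in VEGFD, without overlap and with a change of -0.50 ± 0.33 (adjusted p 0.826 in limma). Its VEGFD replicate 1 and Apex replicate 1 were close together. The second Cxcl16 probe set had 17.3 and 29.3 in Apex and 28.7 and 15.1 in VEGFD. Its groups overlapped, its change was -0.06 and the mean of both probe sets gave -0.28. Cx3cl1, the ligand of Cx3cr1 and known from inflamed endothelium, had 50.2 and 78.8 in Apex and 36.1 and 59.9 in VEGFD, overlapping, with a change of -0.33 ± 0.34 (adjusted p 0.849 in limma). Of its 3 other probe sets 2 went the other way, by 0.17 (signals of 8.24 to 32.8) and by 0.30 (1.01 to 17.1, under 25.3 on every array).

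The members near background were 12 genes under 25.3 on all 4 arrays, with signals between 0.866 and 20.6. They were Ccl1, Ccl3, Ccl5, Ccl12, Ccl20, Ccl22, Ccl24, Cxcl2, Cxcl9, Cxcl11, Cxcl15 and Xcl1. Without detection calls, a low signal sets no limit on the RNA present. Together with Ccl6, Ccl11, Ccl17 and Cxcl3 they made up the 16 members below the filter.

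Several probe sets measured 13 of the members, and the direction was the same in all probe sets of 11 of them. The exceptions were Ccl25 and Cx3cl1. Among the members that separated most, the other probe sets gave smaller changes, as for Cxcl14 (2.03 beside 3.65), Cxcl12 (-0.53 and -0.11 beside -1.03) and Ccl6 (-0.82 beside -2.001). Those of Cxcl12 and Ccl6 were dim, with at most 50.7 and 33.4. Why they gave smaller changes was not tested.

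**Figure D4:**
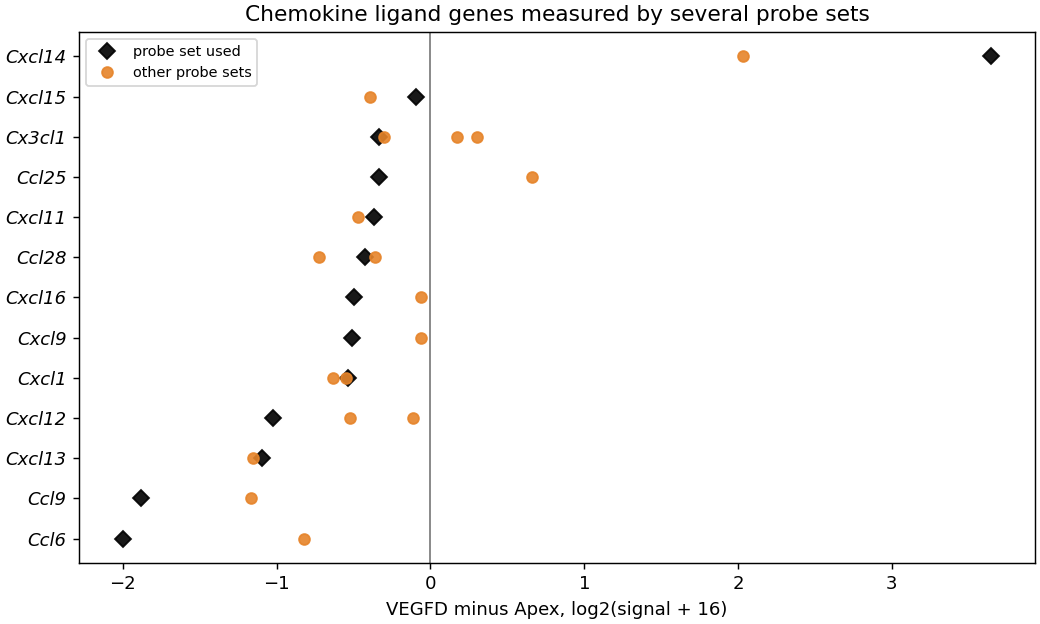
Change, in log2(signal + 16), VEGFD minus Apex, for the 13 chemokine ligand genes with several probe sets; black diamonds are the probe sets used and orange circles the others. All probe sets of a gene fall on 1 side of 0 for 11 genes, and Ccl25 and Cx3cl1 have probe sets on both sides.

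The marker genes of the labelled cell type and of other cell types were read on the same arrays. Summed over 12 pan-endothelial markers, signals were 773 and 4406 in the Apex arrays and 1207 and 490 in the VEGFD arrays. Emcn alone gave 2670 of the sum in Apex replicate 2, and without it the sums were 725 and 1736 in Apex and 1101 and 466 in VEGFD. Pecam1 was 141 in Apex replicate 2 but between 2.22 and 3.25 in the others. In the same way Cdh5 was 146 there and at most 13.0 elsewhere, Erg 68.3 and at most 1.48, and Tie1 33.4 and at most 1.81. Kdr (55.4 to 90.8) and Eng (271 to 829) were above the filter signal on every array. All 7 tested pan-endothelial markers had changes below 0, and none passed. Summed over 8 lymphatic markers, signals were 1142 and 2582 in Apex and 1528 and 2124 in VEGFD, most of it from Pdpn (963 to 1715), which fibroblasts share. Prox1 was at most 11.6 on any array, and Flt4 (42.6 to 247) and Foxc2 (58.2 to 164) were above the filter signal on every array. Summed over 8 fibroblast markers, signals were between 17284 and 19407, most of it from Col1a2 (5555 to 6846) and Col3a1 (4545 to 5400). Single markers differed, with 4 of the 7 tested above 0 and 3 below. Dpt was 2725 and 2407 in Apex and 204 and 168 in VEGFD. Its change of -3.68 ± 0.23 had the smallest adjusted p of all tested genes (0.115 in limma). Apex replicate 2 held the highest signal of 9 of the 12 pan-endothelial markers, though not of Tek, Kdr or Eng, and also of 9 of the 17 tested chemokine genes, against 29.7% of all tested genes. Summed adipocyte markers, 5 of 6 measured, were 2001 and 4517 in Apex and 1164 and 1227 in VEGFD. Fabp4 alone gave 1741 and 4073 of these sums in Apex and 1098 and 1047 in VEGFD. All 3 tested adipocyte markers had changes below 0 without overlap, and none passed. Besides Fabp4 these were Adipoq (38.3 and 145 in Apex, 12.7 and 12.5 in VEGFD) and Pparg (199 and 281 in Apex, 50.5 and 157 in VEGFD). Ccl2, Ccl7, Ccl9 and Ccl11 were highest in Apex replicate 2, and their changes without it were -0.41, -0.94, -1.17 and -1.29. Leaving out the highest Apex array necessarily raises a change, so these values say nothing about cell content. Cxcl12 and Ccl6, highest in Apex replicate 1, went from -1.03 to -1.14 and from -2.001 to -2.28 without Apex replicate 2. Leaving out the lower Apex array necessarily lowers a change, so these values say nothing about cell content either. Summed smooth muscle and pericyte markers were 16179 in VEGFD replicate 2 and between 7194 and 8735 elsewhere. The Cxcl14 probe set used was highest in VEGFD replicate 2. Its second probe set was highest in VEGFD replicate 1, with 334 beside 315 in VEGFD replicate 2. Acta2 (8802) and Tagln (5553) gave most of the sum in VEGFD replicate 2. The markers did not move together, as 4 of the 7 tested had changes above 0 and 3 below. Pdgfrb was 2978 and 3479 in Apex and 2123 and 1268 in VEGFD, and Des was 85.0 and 94.0 in Apex and 10.1 and 51.1 in VEGFD. Summed over 7 epithelial markers, signals were 393 and 499 in Apex and 237 and 150.1 in VEGFD. Single epithelial markers differed, with 4 of the 5 tested below 0 and 1 above, and 2 of the 7 lay under 25.3 on all arrays. The lowest changes were those of Dsp (-2.24) and Epcam (-0.93), whereas Krt8 had a change of 0.48. The part of these cell types in the chemokine changes was not tested, and in bulk samples fewer cells of a type and less RNA per cell cannot be told apart.

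Leukocytes both make and answer to chemokines. Of 19 leukocyte markers 17 were measured and 7 lay under 25.3 on all arrays, and their sums were 1494 and 1519 in Apex and 1131 and 978 in VEGFD. Ptprc, the pan-leukocyte gene that encodes CD45, was between 2.41 and 13.0, whereas Csf1r, a macrophage gene, was 503 and 472 in Apex and 335 and 558 in VEGFD. The neutrophil gene S100a8 was 529 and 477 in Apex and 283 and 71.4 in VEGFD, whereas its partner S100a9 was at most 10.1 on any array. Without S100a8 the sums were 965 and 1042 in Apex and 848 and 907 in VEGFD. The part of leukocytes in the chemokine differences was not tested.

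Most chemokine receptor genes lay below the filter, and 6 of the 16 measured stayed under 25.3 on every array. Of 18 listed, 4 were tested, with 1 change above 0, 3 below 0 and a median of -0.12, and none passed (adjusted p 0.884 to 0.940 in limma). Ccr1, a receptor of Ccl6, Ccl7 and Ccl9, had 5.41 and 43.0 in Apex and 9.25 and 108 in VEGFD, overlapping, with a change of 0.65 ± 0.87. Ccr2, the receptor of Ccl2, had 23.8, 42.2, 19.2 and 38.4 in Apex 1, Apex 2, VEGFD 1 and VEGFD 2, a change of -0.14 ± 0.37. Ccr6 had a change of -0.16 ± 0.27 and Cxcr3 one of -0.11 ± 0.28, both within 1 SE of 0. Cxcr4, the signalling receptor of Cxcl12, was at most 7.65 on any array.

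The list of atypical and decoy receptors held 6 genes, Ackr1, Ackr2, Ackr3, Ackr4, Ccrl2 and Pitpnm3, and all were measured. All but Pitpnm3 were tested. These 5 had changes below 0 but within 1 SE of it, with a median of -0.13, and none passed (adjusted p 0.892 to 0.982 in limma). Ackr3, which takes up Cxcl12, had 939 and 670 in Apex and 1589 and 325 in VEGFD, so the VEGFD arrays lay on both sides of the Apex arrays, with a change of -0.13 ± 0.73. Ackr2, which takes up inflammatory CC ligands, had a change of -0.22 ± 0.31. Ackr4, which takes up Ccl19, Ccl21 and Ccl25, had one of -0.20 ± 0.64, and Ccrl2 one of -0.11 ± 0.28. The platelet chemokine genes Pf4 and Ppbp, whose symbols lie outside the naming rule, were below the filter with at most 49.8 and 40.7.

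Genes that respond to NF-kappaB and to interferon, which switch on many chemokine genes, were counted beside them. Of 12 NF-kappaB response genes 11 were measured and 10 were tested, 5 with changes above and 5 below 0, with a median of 0.04 and none passed. Il6, an inflammatory cytokine gene, had 94.6 and 54.9 in Apex and 164 and 274 in VEGFD, without overlap, with a change of 1.37 ± 0.37 and an adjusted p of 0.823 in limma. Vcam1, an adhesion gene, had a change of -0.51 ± 0.24, and the NF-kappaB inhibitors Tnfaip3 and Nfkbia had 0.36 ± 0.26 and -0.41 ± 0.31. Of 15 interferon response genes 12 were measured and 10 were tested, 6 above and 4 below 0, with a median of 0.26 and none passed (adjusted p 0.826 to 0.988 in limma). The 4 with the smallest unadjusted p were Gbp2 (0.78 ± 0.52), Oasl2 (1.08 ± 0.88), Rsad2 (0.75 ± 0.64) and Ifit3 (-0.58 ± 0.54).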

How the data were processed

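RNA was measured on 4 Affymetrix mouse arrays, 2 for each group. The authors deposited a linear intensity for each probe set. How it was computed, and the genome build, were not given in the sources used here. In the deposited table each array had a mean of 150 after trimming 2% of probe sets at each end, array medians were between 23.8 and 30.4, and no other scaling was found.

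Of 45101 probe sets, 64 were controls, and the platform annotation paired 34945 with 1 gene symbol. Values were used as log2(signal + 16), with the probe set of highest mean signal for each gene and a filter at the median probe set, which left 11677 genes. VEGFD was set against Apex with limma 3.58.1 (R 4.3.3), using lmFit and eBayes with a trend on intensity, two-sided. P-values were adjusted by Benjamini-Hochberg over all tested genes, with a threshold of 0.05. The fit was tested on simulated data. Alternatives covered the pseudocount (1 and 64), the filter, the scaling, the choice of probe set, the variance trend, the replicate number as a block and leaving out each array.

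The members, gene lists and tests were chosen with earlier results of these data known. All 17 members above the filter are named with their values, the 16 below it mostly as a group, and from each pathway list the 4 tested genes with the smallest unadjusted p. Named after their values were seen were Cxcr4, Pecam1, Prox1, Pdpn, Flt4, Foxc2, Emcn, Kdr, Eng, Tek, Ptprc, Csf1r, S100a8 and S100a9. The same holds for Acta2, Tagln, Pdgfrb, Des, Col1a2, Col3a1, Dpt, Fabp4, Adipoq, Pparg, Cdh5, Erg, Tie1, Dsp, Epcam, Krt8, Ackr1 and Pitpnm3. Promoters came from RefSeq. The number of arrays limits the precision of every value.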

Additional observations from a re-analysis of the deposited data

How the results depend on the processing

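No adjusted p passed among the members under the 14 alternatives, except for Cxcl14 without VEGFD replicate 1, so that count ranged from 0 to 1 with 1 array left out. The lone array of a group was then assumed to vary like the others. Over all tested genes the count was 6 with the replicate number as a block, which called no member, and with 1 array left out it ranged from 0 to 372. VEGFD replicate 1 gave 372 when left out and VEGFD replicate 2 gave 4. With the replicate block adjusted p in limma was 0.196 for Cxcl14, 0.136 for Ccl9, 0.406 for Ccl7 and 0.422 for Cxcl12. The labels do not say that the numbers pair arrays, and the deviations of arrays with the same number from their group means correlated at r = 0.20 over the tested genes.

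The median change of the tested members was -0.24 with a pseudocount of 64, -0.76 with the stricter filter, which left 6 members, and between -0.41 and -0.26 with 1 array left out. Direction turned for 5 members. Ccl8 was 0.017 with centred arrays, and Ccl25 was 0.16 over the mean of its probe sets. With 1 array left out Ccl4 ranged from -0.34 to 0.0018, Ccl8 from -0.32 to 0.10, Cxcl10 from -0.28 to 1.17 and Cxcl13 from -2.91 to 0.73. The other 259 values for single members kept their direction, and where an adjusted p was computed both ways they kept their side of the threshold. The causes of these shifts were not tested.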
